A study of Mus musculus with 12 samples.

Results

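The genes described here are 9 genes of adrenergic and cAMP signalling, chosen by symbol out of the 53801 genes of the count and TPM tables, TPM being an abundance scaled for transcript length and library total. They are the adrenoceptors *Adrb1*, *Adrb3*, *Adra1a* and *Adra1b*, the receptor kinase *Grk5*, the adenylyl cyclases *Adcy5*, *Adcy6* and *Adcy7*, and the cAMP phosphodiesterase *Pde4b*. RNA was sequenced from whole hearts of adult male C57BL/6N mice, with 4 hearts in each of 3 groups and 12 libraries in all. The groups were sham surgery, acute myocardial infarction (AMI) by permanent ligation of the left anterior descending coronary artery with harvest after 1 day (day 1 AMI), and the same ligation with harvest after 7 days (day 7 AMI). No transgene or drug distinguished the groups, and the shared treatment text of the labels names days 0, 1 and 7 without tying a day to the sham hearts. A whole heart with permanent ligation holds infarcted, border and remote tissue together, so each value is an average over them.

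Noradrenaline and adrenaline reach the heart through sympathetic nerves and the blood and act on adrenoceptors at the cell surface. Receptors of the β class couple mainly to the G protein Gs, which activates adenylyl cyclase, and the cAMP so made activates protein kinase A (PKA), which phosphorylates calcium channels, phospholamban and troponin I and so raises the force and rate of contraction. Receptors of the α1 class couple to Gq and act through phospholipase C instead. G protein-coupled receptor kinases and arrestins switch off receptors that are bound by agonist, and phosphodiesterases degrade cAMP. Sustained sympathetic drive with loss of β-adrenoceptor responsiveness is a well-known feature of the failing heart.

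Depth ran from 23204551 to 32166517 counts per library. Unless stated otherwise, levels are read counts scaled to library size (CPM) with TMM normalization, and are given for replicates 1 to 4 of each group. A gene is said to have risen or fallen where the edgeR quasi-likelihood test over all 15306 genes that passed a filter on low counts gave a false discovery rate (FDR) below 0.05, and a DEG also had a fold change (FC) of at least 2. Of the 9 genes, 8 passed the filter and *Adrb3* did not. In whole tissue, fewer cells of a type and less RNA per cell cannot be told apart. The summed level of 10 cardiomyocyte markers ranged from 59304 to 71117 CPM in sham, from 37367 to 45698 CPM in day 1 AMI and from 29516 to 37027 CPM in day 7 AMI, so heart muscle transcripts were the main marker class in every group. Of these markers 7 of 10 were lower on day 1 and 9 of 10 on day 7, with *Xirp2* higher on both days. Sham replicate 2 stood apart in its erythroid transcripts, with a summed level of 4450 CPM against 491 to 1178 CPM in the other sham hearts.

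**Figure D1:**
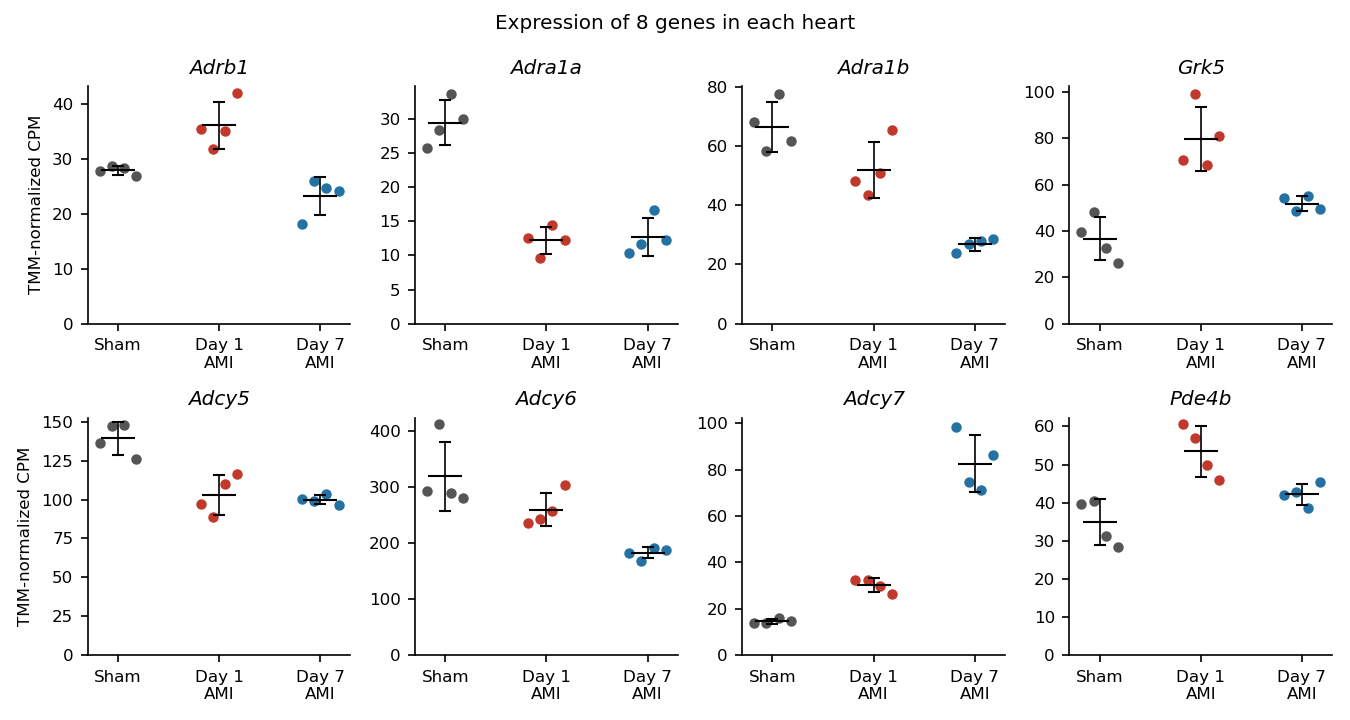
TMM-normalized CPM (linear axes from 0) of the 8 genes that passed the low-count filter. Each point is 1 heart, with replicates 1 to 4 from left to right within a group, and the bar is the mean ± SD of 4 hearts. *Adra1a* is low in all 8 AMI hearts, *Adra1b* and *Adcy6* are lowest on day 7, *Grk5* and *Pde4b* are highest on day 1, and *Adcy7* climbs from 13.7 to 16.2 CPM in sham to between 71.3 and 98.2 CPM on day 7.

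*Adrb1* encodes the β1-adrenoceptor, the main β-adrenoceptor of cardiomyocytes. The gene (ENSMUSG00000035283) lies on the plus strand at chr19:56722199-56733113 of the GRCm38 build in the GENCODE M21 annotation, which is used for every gene position given here. Its level was 27.7, 28.7, 28.4 and 26.9 CPM in sham, 35.4, 31.8, 35.1 and 42.1 CPM in day 1 AMI, and 18.2, 25.9, 24.6 and 24.1 CPM in day 7 AMI. All day 1 hearts lay above all sham hearts, and all day 7 hearts lay below them. *Adrb1* rose on day 1 by 0.37 on the log2 scale (standard error 0.110, edgeR FDR = 0.0154), a 1.29-fold change. Between day 1 and day 7 it fell by 0.64 on the log2 scale (standard error 0.110, FDR = 0.00034). The day 7 difference from sham was -0.27 (standard error 0.111, FDR = 0.0503) and did not pass the test, although the CPM values did not overlap. That difference turned to 0.13 with library sizes alone as the scaling and to 0.26 on log2(TPM + 1), neither of them past the test, so its direction depends on the scaling. It passed without day 1 AMI replicate 2 (FDR = 0.043), without day 1 AMI replicate 4 (FDR = 0.0341) or without day 7 AMI replicate 2 (FDR = 0.0319).

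RefSeq promoter windows of GRCm38.p6, from 250 bases before to 50 bases after a transcript start, were matched by symbol for 6 of the 9 genes and 12 starts. The cAMP response element (CRE) TGACGTCA, the site of CREB-family factors, was in none of these 12 windows on either strand and in 1.79% of all 32851 mouse promoter windows. The short CRE motif TGACG, which also lies within the full element, was found on either strand in 3 of the 12 windows and in 20.8% of all windows. The 3 windows are that of *Adrb1*, 1 of 3 for *Adcy7* and 1 of 4 for *Pde4b*, and the *Grk5* window, whose gene also rose on day 1, has none. Their sequence before the start is printed with each gene to show where the motif of this pathway's own factors lies. Such a match is a description of letters only, and gene-level counts do not tell which start was used. The 250 bases before the *Adrb1* start, at chr19:56721867-56722116 on the plus strand, carry the motif (in capitals) 90 bases before the start.
Adrb1: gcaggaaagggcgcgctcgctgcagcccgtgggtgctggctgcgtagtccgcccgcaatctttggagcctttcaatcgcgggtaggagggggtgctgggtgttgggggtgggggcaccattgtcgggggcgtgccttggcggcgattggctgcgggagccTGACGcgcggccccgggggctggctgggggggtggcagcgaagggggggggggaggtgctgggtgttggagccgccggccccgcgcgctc

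*Adrb3* encodes the β3-adrenoceptor, best known from fat tissue. The gene (ENSMUSG00000031489) lies on the minus strand at chr8:27225776-27250616. It was counted 0, 2, 9 and 1 times in the sham hearts, 8, 2, 0 and 4 times on day 1 and 6, 5, 0 and 5 times on day 7. These counts lie around the floor of 3 counts per library and overlap fully between groups, so no fold change was computed and no difference was detectable at this depth. The antisense gene *Gm45470* overlaps 24.9% of its exon bases, and since the strand counted is not stated, reads of the 2 genes cannot be told apart. The summed level of 6 adipocyte markers was at most 6.45 CPM in any heart.

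*Adra1a* encodes the α1A-adrenoceptor and was the receptor that fell most on day 1. The gene (ENSMUSG00000045875) lies on the plus strand at chr14:66635251-66771168. Its level was 25.9, 28.4, 33.7 and 30.1 CPM in sham, 12.6, 9.64, 14.4 and 12.2 CPM in day 1 AMI, and 10.3, 11.6, 16.7 and 12.3 CPM in day 7 AMI. No AMI heart of either day reached the lowest sham heart. *Adra1a* fell by 1.27 on the log2 scale on day 1 (standard error 0.151, FDR = 4.55e-05) and by 1.21 on day 7 (standard error 0.151, FDR = 1.07e-05), so it was a DEG at both times. The 2 AMI groups overlapped, with a difference of 0.06 (standard error 0.152, FDR = 0.777) whose sign changed to -0.05 without day 1 AMI replicate 2 and to -0.10 without day 7 AMI replicate 3. The size depends on the scaling: with library sizes alone the values were -1.01 and -0.82, and on log2(TPM + 1) -0.82 and -0.62, all past the test but all except the first short of the FC of 2.

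*Adra1b* encodes the α1B-adrenoceptor and moved later. The gene (ENSMUSG00000050541) lies on the minus strand at chr11:43774606-43901210. Its level was 68.1, 58.2, 77.6 and 61.7 CPM in sham, 48.3, 43.4, 50.7 and 65.3 CPM in day 1 AMI, and 23.8, 27.01, 28.0 and 28.5 CPM in day 7 AMI. Day 1 replicate 4 lay within the sham range, whereas all day 7 hearts lay below every other heart. *Adra1b* fell by 0.35 on day 1 (standard error 0.123, FDR = 0.0323) and by 1.31 on day 7 (standard error 0.126, FDR = 1.11e-06), and by 0.95 from day 1 to day 7 (standard error 0.125, FDR = 3.86e-05), all on the log2 scale. The small day 1 decrease did not pass with library sizes alone (-0.08, FDR = 0.646) or on log2(TPM + 1) (-0.05, FDR = 0.769). It also did not pass when sham replicate 1 (FDR = 0.0635), sham replicate 3 (FDR = 0.108), or day 1 AMI replicate 1 (FDR = 0.0873), 2 (FDR = 0.105) or 3 (FDR = 0.0725) was left out. The day 7 decrease passed in each of these fits, but it was -0.91 with library sizes alone and -0.64 on log2(TPM + 1), both short of the FC of 2.

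Shares of the summed TPM of all 9 mouse adrenoceptor genes were computed within each heart, which removes the scaling between libraries, and are given as a description. *Adra1b* was the largest of the 9, at 52.0% ± 3.05 (SD, n = 4) in sham, 47.0% ± 1.80 on day 1 and 40.1% ± 1.96 on day 7. *Adrb1* made up 22.2% ± 1.65 in sham, 33.5% ± 0.718 on day 1 and 33.0% ± 2.97 on day 7. Every AMI heart (29.7% or more) lay above every sham heart (24.4% or less). The summed adrenoceptor TPM was 61.3 ± 5.68 in sham, 65.8 ± 10.2 on day 1 and 50.2 ± 4.93 on day 7. A higher share therefore need not mean more transcripts, and the *Adrb1* level on day 7 did not pass the test against sham. *Adra1a* went from 14.9% ± 1.45 to 7.32% ± 1.27 and then 11.2% ± 1.49. *Adrb1* transcripts thus stood at 0.334 ± 0.0384 per *Adra1a* plus *Adra1b* transcript in sham, at 0.618 ± 0.0413 on day 1 and at 0.645 ± 0.0861 on day 7. The ratio of *Adra1b* to *Adra1a* was 3.52 ± 0.522, 6.56 ± 1.10 and 3.63 ± 0.481, so the α1 pair differed from sham in its ratio on day 1 and lay back within the sham range or below it on day 7.

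**Figure D2:**
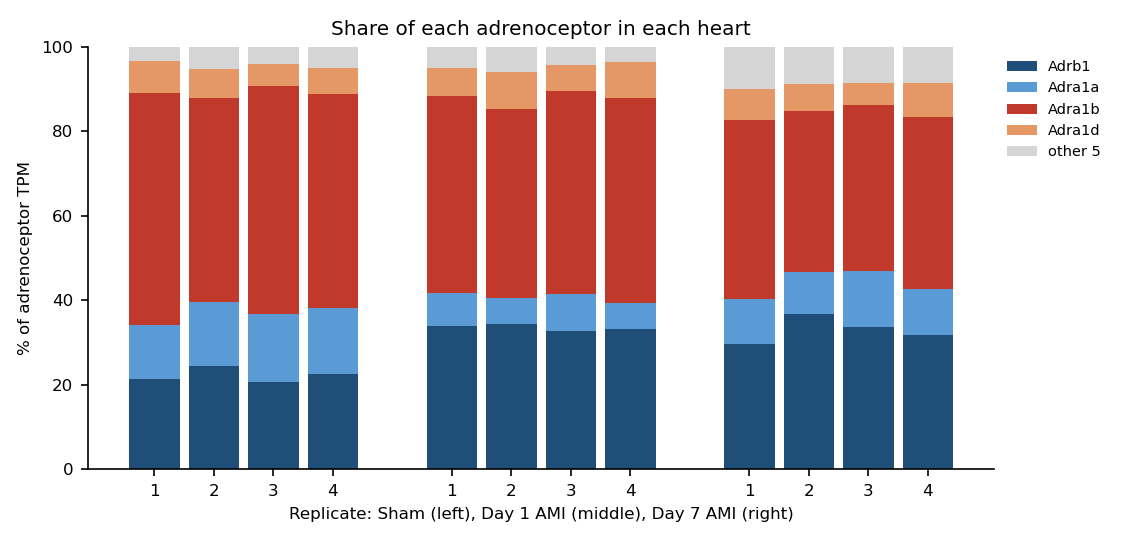
Share (%) of each adrenoceptor gene in the summed TPM of 9 adrenoceptor genes, 1 stacked bar per heart, in 3 blocks of 4 hearts. The *Adrb1* segment is taller in all 8 AMI hearts (29.7% to 36.7%) than in the sham hearts (20.6% to 24.4%), and the *Adra1a* segment is shortest on day 1 (6.20% to 8.79%).

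*Grk5* encodes a kinase that phosphorylates agonist-bound receptors so that arrestins can bind them. The gene (ENSMUSG00000003228) lies on the plus strand at chr19:60889749-61095968. Its level was 39.5, 48.3, 32.6 and 26.3 CPM in sham, 70.6, 99.0, 68.7 and 80.8 CPM in day 1 AMI, and 54.1, 48.7, 55.2 and 49.4 CPM in day 7 AMI. The 3 groups did not overlap, although the highest sham heart (replicate 2) and the lowest day 7 heart were close. *Grk5* rose by 1.12 on the log2 scale on day 1 (standard error 0.160, FDR = 0.000136), a 2.17-fold change, and by 0.50 on day 7 (standard error 0.159, FDR = 0.0145). From day 1 to day 7 it fell by 0.62 (standard error 0.157, FDR = 0.00506), a call that was not past the test on log2(TPM + 1) (-0.36, FDR = 0.101). Without sham replicate 4 the day 1 rise was 0.99, just short of the FC of 2. Set against *Grk2*, the other main cardiac kinase of this family, named after its values were seen, the *Grk5* to *Grk2* ratio in TPM was 0.430 ± 0.0634 in sham, 0.853 ± 0.0986 on day 1 and 0.667 ± 0.135 on day 7.

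*Adcy5* and *Adcy6* encode the main adenylyl cyclases of cardiomyocytes, both inhibited by calcium and by Gi. *Adcy5* (ENSMUSG00000022840) lies on the plus strand at chr16:35154877-35305738, and *Adcy6* (ENSMUSG00000022994) on the minus strand at chr15:98589973-98610076. *Adcy5* stood at 136, 147, 148 and 126 CPM in sham, at 96.9, 88.7, 110 and 117 CPM in day 1 AMI, and at 100.3, 99.2, 104 and 96.7 CPM in day 7 AMI. Both AMI groups lay below the sham range and overlapped each other. *Adcy5* fell by 0.44 on day 1 (standard error 0.0896, FDR = 0.00166) and by 0.48 on day 7 (standard error 0.0897, FDR = 0.000362) on the log2 scale, and the AMI groups differed by -0.04 (standard error 0.0895, FDR = 0.718). These 2 decreases depend on the scaling: with library sizes alone they were -0.17 (FDR = 0.205) and -0.08 (FDR = 0.491), and on log2(TPM + 1) they were -0.11 (FDR = 0.40) and 0.08 (FDR = 0.537), the last with the opposite sign.

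*Adcy6* stood at 293, 412, 289.7 and 280.3 CPM in sham, at 237, 242, 257 and 303 CPM in day 1 AMI, and at 183, 168, 192 and 188 CPM in day 7 AMI. Sham replicate 2 was far above the other sham hearts, and it was also the heart with the high erythroid level. Whether the 2 are linked was not tested. The day 1 group overlapped sham, and every day 7 heart lay below every other heart. *Adcy6* fell by 0.80 on day 7 (standard error 0.122, FDR = 6.25e-05) and by 0.51 from day 1 to day 7 (standard error 0.122, FDR = 0.00361) on the log2 scale. Without sham replicate 2 the day 7 decrease was -0.66 (FDR = 5.64e-05). The day 1 difference was -0.30 (standard error 0.121, FDR = 0.0639), it turned to 0.08 on log2(TPM + 1), and without sham replicate 2 it was -0.15 (FDR = 0.226). It was past the test without sham replicate 4 (-0.35, FDR = 0.0471) or without day 1 AMI replicate 4 (-0.38, FDR = 0.0251). On log2(TPM + 1) the day 7 difference was -0.17 (FDR = 0.309) and the day 7 against day 1 difference -0.25 (FDR = 0.172), so neither call holds on that scale. The antisense gene *Gm29331* overlaps 8.92% of the exon bases of *Adcy6*, with the same limit on strand as above.

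*Adcy7* encodes a cyclase known mainly from blood and immune cells, and it had the largest change of the 8 tested genes. The gene (ENSMUSG00000031659) lies on the plus strand at chr8:88272403-88329962. Its level was 13.7, 13.8, 16.2 and 14.5 CPM in sham, 32.5, 32.3, 30.0 and 26.3 CPM in day 1 AMI, and 98.2, 74.5, 71.3 and 86.3 CPM in day 7 AMI. The groups were fully separated, and each later group lay above the earlier one. *Adcy7* rose by 1.06 on day 1 (standard error 0.112, FDR = 2.29e-05), a 2.08-fold change, and by 2.51 on day 7 (standard error 0.115, FDR = 2.82e-09), a 5.68-fold change. The step between the 2 AMI groups was 1.45 (standard error 0.109, FDR = 3.7e-07). The exact two-sided permutation test gave p = 0.0286 for each of the 3 comparisons, the smallest that 4 against 4 hearts allow. *Adrb1* and *Grk5* had the same permutation p in all 3 comparisons, so it does not set *Adcy7* apart. Over the same groups the summed level of 10 macrophage and monocyte markers ranged from 205 to 317, from 326 to 457 and from 476 to 759 CPM, with 7 of 10 higher on day 1 and 9 of 10 on day 7 and none of the 10 at 0. That of 8 fibroblast markers ranged from 1093 to 1335, from 1746 to 2370 and from 8207 to 16464 CPM, with 8 of 8 higher on day 7. On day 7, 5 of 6 endothelial, 4 of 6 smooth muscle and pericyte and 4 of 6 T and B lymphocyte markers were also higher, with 0 lower. Of 7 neutrophil markers tested 2 were higher and 1 lower. The adipocyte, glia and nerve, erythroid and atrial lists had 0 higher. The part of these cell types in the *Adcy7* change was not tested. The 250 bases before the first *Adcy7* start matched, at chr8:88282742-88282991 on the plus strand, carry the short CRE motif (in capitals) 28 bases before the start.
Adcy7: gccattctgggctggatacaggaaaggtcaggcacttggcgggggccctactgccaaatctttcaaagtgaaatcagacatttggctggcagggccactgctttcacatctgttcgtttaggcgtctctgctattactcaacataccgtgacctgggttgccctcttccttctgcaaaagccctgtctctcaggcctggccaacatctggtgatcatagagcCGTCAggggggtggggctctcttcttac

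Within the summed TPM of the 10 adenylyl cyclase genes, *Adcy6* held 62.2% ± 2.30 (SD, n = 4) in sham, 58.1% ± 2.22 on day 1 and 45.3% ± 2.77 on day 7. *Adcy7* held 2.35% ± 0.454, 5.34% ± 0.857 and 15.7% ± 1.93, with no overlap between groups. *Adcy5* held 18.2% ± 2.04, 14.7% ± 0.891 and 15.8% ± 0.599. The pair of main cardiomyocyte cyclases together made up 80.5% ± 0.398 of cyclase TPM in sham, 72.8% ± 2.67 on day 1 and 61.0% ± 3.02 on day 7, and this share is free of the scaling that moves the sign of the *Adcy5* difference. The summed cyclase TPM was 124 ± 26.5 in sham and 150 ± 6.98 on day 7, so a lower share need not mean fewer transcripts of the pair. *Adcy4*, known from endothelium, held 7.92% ± 1.16, 11.3% ± 2.52 and 13.9% ± 2.32, and was named after its values were seen. Its lowest day 1 share (7.64%) lay within the sham range (6.74% to 9.49%). By edgeR its log2 FC against sham was 0.31 on day 1 (FDR = 0.146) and 0.23 on day 7 (FDR = 0.24), neither past the test.

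**Figure D3:**
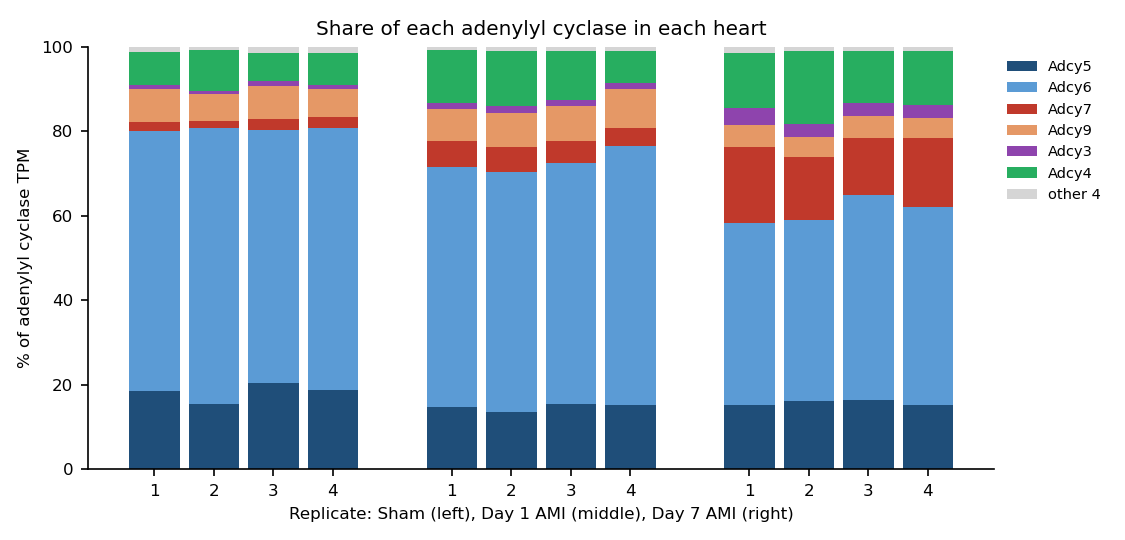
Share (%) of each adenylyl cyclase gene in the summed TPM of 10 cyclase genes, 1 stacked bar per heart, in 3 blocks of 4 hearts. The *Adcy7* segment widens from 1.74% to 2.78% in sham to between 4.25% and 6.10% on day 1 and between 13.7% and 18.1% on day 7, while the *Adcy6* segment narrows to between 42.9% and 48.4%.

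*Pde4b* encodes a cAMP-specific phosphodiesterase that is found near calcium channels in cardiomyocytes and is abundant in leukocytes. The gene (ENSMUSG00000028525) lies on the plus strand at chr4:102087543-102607259. Its level was 39.7, 40.5, 31.2 and 28.4 CPM in sham, 60.7, 57.0, 49.95 and 46.1 CPM in day 1 AMI, and 41.9, 42.8, 38.5 and 45.3 CPM in day 7 AMI. All day 1 hearts lay above all others, and the day 7 hearts overlapped the upper part of the sham range. *Pde4b* rose by 0.61 on the log2 scale on day 1 (standard error 0.121, FDR = 0.00131), a 1.53-fold change. On day 7 the difference from sham was 0.27 (standard error 0.121, FDR = 0.0695), and it was past the test without sham replicate 1 (FDR = 0.0401) or sham replicate 2 (FDR = 0.0288), with library sizes alone (0.67, FDR = 0.000391) and on log2(TPM + 1) (0.78, FDR = 0.000113). From day 1 to day 7 it fell by 0.34 (standard error 0.120, FDR = 0.0302). That call was lost with library sizes alone (-0.21, FDR = 0.187), on log2(TPM + 1) (-0.04, FDR = 0.813), without day 1 AMI replicate 1 (FDR = 0.0949) or 2 (FDR = 0.0675), and without day 7 AMI replicate 1 (FDR = 0.0548), 2 (FDR = 0.0533) or 3 (FDR = 0.0802). *Pde4b* made up 21.2% ± 1.12 of the TPM of the 4 *Pde4* genes in sham, 33.1% ± 6.17 on day 1 and 36.1% ± 1.52 on day 7. The summed level of 8 neutrophil markers ranged from 2.25 to 54.3 CPM in sham and from 42.2 to 142 CPM on day 1. On day 7 it ranged from 10.4 to 40.3 CPM. Of the 7 tested, 4 were higher on day 1, and 2 were higher and 1 lower on day 7. Macrophage and monocyte markers ranged from 205 to 317, from 326 to 457 and from 476 to 759 CPM in the 3 groups. For T and B lymphocyte markers the ranges were 1.60 to 4.37, 2.55 to 5.53 and 5.41 to 7.79 CPM. The part of these cell types in the *Pde4b* change was not tested. The 250 bases before a *Pde4b* start, at chr4:102421305-102421554 on the plus strand, carry the short CRE motif (in capitals) 34 bases before the start.
Pde4b: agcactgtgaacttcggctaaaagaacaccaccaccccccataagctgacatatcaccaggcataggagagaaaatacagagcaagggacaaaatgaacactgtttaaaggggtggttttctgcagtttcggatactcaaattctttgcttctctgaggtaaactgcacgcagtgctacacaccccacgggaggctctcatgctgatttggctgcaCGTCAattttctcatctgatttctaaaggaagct

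Counted together, 4 of the 8 tested genes rose on day 1 (*Adrb1*, *Grk5*, *Adcy7* and *Pde4b*) and 3 fell (*Adra1a*, *Adra1b* and *Adcy5*), where 22% of all genes tested rose and 19.9% fell. DEGs among them were *Grk5* and *Adcy7* upward and *Adra1a* downward, against 7.79% of all genes upward and 2.98% downward. On day 7, 2 rose (*Grk5* and *Adcy7*) and 4 fell (*Adra1a*, *Adra1b*, *Adcy5* and *Adcy6*), where 30.9% of all genes rose and 28.4% fell, and the DEGs were *Adcy7* upward and *Adra1a* and *Adra1b* downward, against 15.3% and 5.88% of all genes. The 2 downward DEG calls on day 7 were below the FC of 2 with library sizes alone and on log2(TPM + 1). Between day 1 and day 7, *Adcy7* alone rose, as a DEG, and 5 fell (*Adrb1*, *Adra1b*, *Grk5*, *Adcy6* and *Pde4b*), none of them a DEG, where 24.2% of all genes rose and 22.8% fell and DEGs were 8.55% and 2.69%. With so few genes these counts are a description, and both AMI groups are set against the same 4 sham hearts. The median log2 FC of the 8 genes was 0.04, -0.37 and -0.42 in the 3 comparisons, beside -0.01, 0.03 and 0.02 for all genes tested.

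The scaling between libraries matters for the small decreases. TMM factors were 0.781 to 0.917 in sham, 1.01 to 1.06 on day 1 and 1.10 to 1.17 on day 7, so the groups differ in the scaling itself. With library sizes alone the median of all genes moved to 0.26, 0.43 and 0.15 in the 3 comparisons, and the share of calls that were increases to 85.6%, 83.2% and 68.8%, from 52.5%, 52.1% and 51.4%. On log2(TPM + 1) the medians were 0.28, 0.48 and 0.19 and the shares 89.5%, 89.7% and 79.3%. Among the 8 genes, library sizes alone gave 4 increases and 1 decrease on day 1, 3 and 3 on day 7, and 1 and 4 between the days. The decreases of *Adra1a* at both times and of *Adra1b* on day 7 passed the test under both of these scalings as well. So did the increases of *Adrb1*, *Grk5*, *Adcy7* and *Pde4b* on day 1. Both scalings move the median of all genes upward, so they are little of a check on increases.

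**Figure D4:**
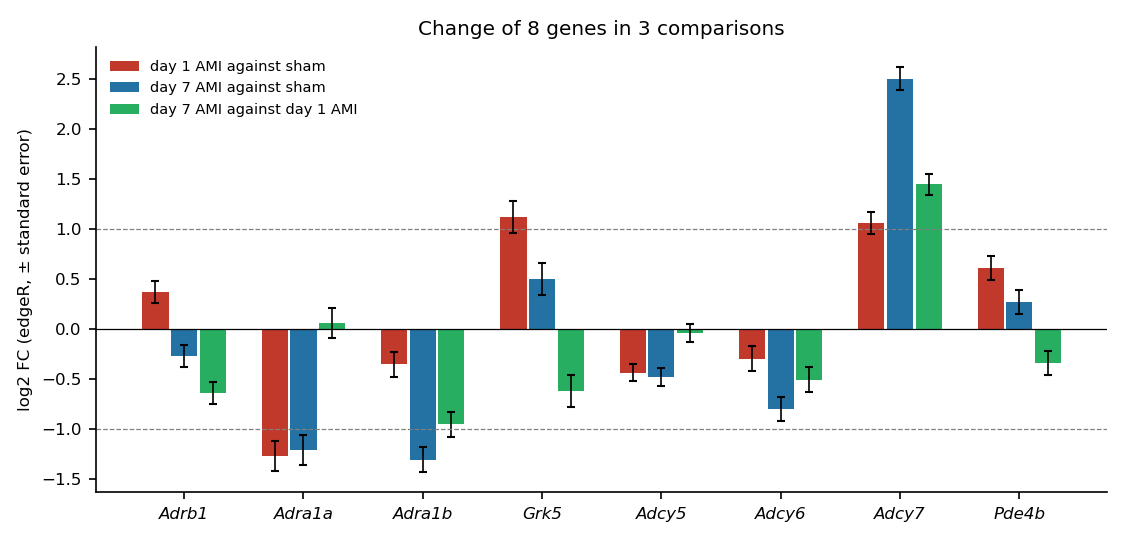
log2 FC from the edgeR fit for the 8 tested genes in 3 comparisons, as bars from 0 with ± standard error and dashed lines at a FC of 2 in either direction. *Adcy7* has the tallest bars (1.06, 2.51 and 1.45), *Adra1a* falls alike on both days (-1.27 and -1.21), and *Adra1b* falls mainly on day 7 (-1.31).

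Levels of different genes were compared per length, in TPM. In sham the order was *Adcy6* (77.8 ± 19.4 TPM), *Adra1b* (31.9 ± 3.93), *Adcy5* (22.4 ± 2.91), *Grk5* (13.8 ± 4.05), *Adrb1* (13.6 ± 1.22), *Pde4b* (11.4 ± 1.90), *Adra1a* (9.18 ± 1.51), *Adcy7* (2.85 ± 0.364) and *Adrb3* (0.0875 ± 0.118). The ranges of *Grk5* and *Adrb1*, of *Adrb1* and *Pde4b*, and of *Pde4b* and *Adra1a* overlapped, so these neighbours are not ordered beyond their spread. On day 1 *Adcy6* (81.4 ± 11.5 TPM) was followed by *Grk5* (37.3 ± 6.96), *Adra1b* (31.0 ± 5.86), *Adrb1* (21.99 ± 3.18), *Pde4b* (20.9 ± 2.57) and *Adcy5* (20.6 ± 2.88), each overlapping the next from *Grk5* on. *Adcy7* (7.38 ± 0.549 TPM) then stood above *Adra1a* (4.79 ± 0.868). On day 7 *Adcy6* (67.8 ± 4.71 TPM) still led, *Grk5* (28.4 ± 1.52), *Adcy7* (23.7 ± 3.92) and *Adcy5* (23.6 ± 0.288) followed with overlap between neighbours, and *Pde4b* (20.2 ± 2.18), *Adra1b* (20.1 ± 1.93), *Adrb1* (16.6 ± 2.37) and *Adra1a* (5.62 ± 0.957) came after them. *Adcy7* thus went from the eighth to the third place of the 9 genes, level with *Adcy5*, while *Adra1b* went from the second to the sixth.

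Set against the mean log2 CPM of the 10 cardiomyocyte markers in the same heart, the genes fell into different patterns, given here as a description. *Adcy6* lay at -3.27 ± 0.427 in sham, -3.28 ± 0.224 on day 1 and -3.27 ± 0.146 on day 7 on this log2 scale, and without sham replicate 2 its sham level was -3.48 ± 0.135. Its fall in CPM thus ran alongside that of the markers with all sham hearts, and by the means was smaller than theirs without sham replicate 2. For each tested gene, sham replicate 2 lay above the mean of the other sham hearts on this scale. *Adra1a* was lower against the markers on day 1 (-7.69 ± 0.177) and on day 7 (-7.13 ± 0.171) than in sham (-6.69 ± 0.162), with no overlap with sham. With only 3 of the markers the highest day 7 heart (-7.57) just overlapped the lowest sham heart (-7.58). The day 1 hearts (at most -8.05) still did not. *Adra1b* was at -5.52 ± 0.176, -5.61 ± 0.291 and -6.04 ± 0.168, so its day 7 values lay below the marker trend too. *Adrb1* was higher against the markers in AMI (-6.13 ± 0.212 and -6.26 ± 0.232) than in sham (-6.76 ± 0.206), although the day 7 and sham ranges overlapped, and *Grk5* was higher too (-4.99 ± 0.329 and -5.09 ± 0.123 against -6.40 ± 0.546). *Adcy5* was at -4.45 ± 0.253, -4.62 ± 0.195 and -4.14 ± 0.122, so on day 7 its mean was higher against the markers than in sham while its CPM was lower. *Pde4b* was at -6.45 ± 0.421, -5.56 ± 0.181 and -5.39 ± 0.251. *Adcy7* moved from -7.70 ± 0.136 to -6.38 ± 0.140 and -4.43 ± 0.341. The share of cardiomyocytes in each heart was not measured, and the markers can themselves change in the cells that remain.

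**Figure D5:**
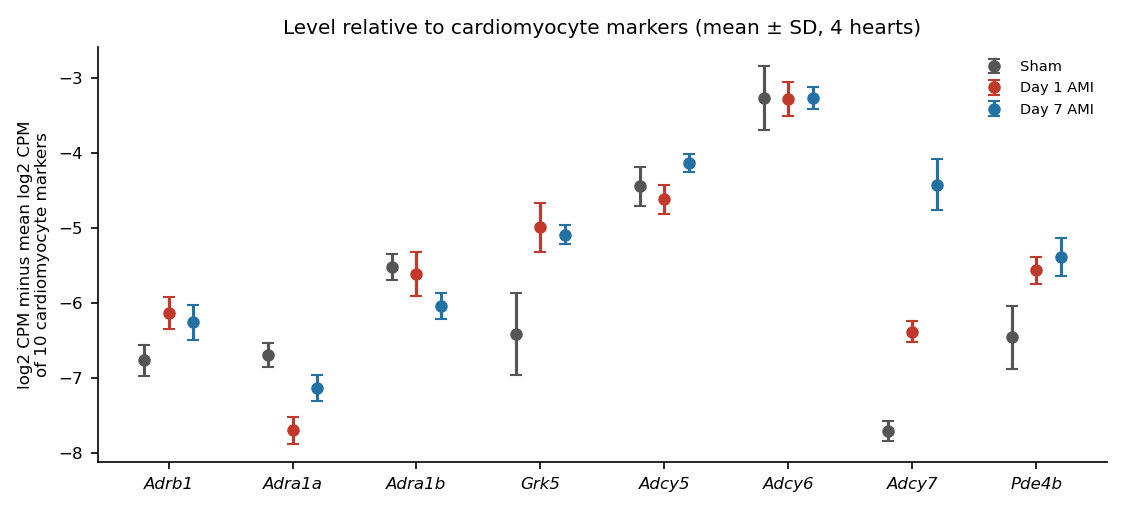
log2 CPM of each gene minus the mean log2 CPM of 10 cardiomyocyte markers in the same heart, as mean ± SD of 4 hearts per group. *Adcy6* stays near -3.3 in the 3 groups (-3.27, -3.28 and -3.27), *Adra1a* drops to -7.69 on day 1, and *Adcy7* climbs to -4.43 on day 7. Without sham replicate 2 the sham mean of *Adcy6* is -3.48.

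The rest of the pathway was followed in 9 lists with 89 genes, of which 85 were tested. On day 1, 19 rose and 21 fell, with a median log2 FC of -0.02, and on day 7, 30 rose and 36 fell, with a median of -0.13, beside 22% and 19.9% of all genes on day 1 and 30.9% and 28.4% on day 7. Of these genes 22 were DEGs against sham on at least 1 day, and the sign of each of their DEG values was the same under the DESeq2, RLE, library-size and TPM alternatives that tested it, although on log2(TPM + 1) several decreases were smaller.

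Among the other adrenoceptors, 4 of 5 genes were tested, and 1 of them fell on day 1 and 3 on day 7. *Adra2b*, an α2-adrenoceptor, fell by 1.04 on day 1 (FDR = 0.0086) and by 1.40 on day 7 (FDR = 0.000784), at a low level of 1.47 ± 0.421 CPM in sham. *Adra2c*, another α2-adrenoceptor, which takes part in restraining noradrenaline release from nerve endings, fell by 1.93 on day 7 (FDR = 0.00138), from 0.746 ± 0.199 CPM. It had only 2 to 9 counts per library on day 7. Of 10 G protein genes, 6 rose and 1 fell on day 1 and 6 rose and 2 fell on day 7. With library sizes alone 8 and then 9 rose and 0 fell. Under that scaling 6289 of all 15306 genes tested rose and 1061 fell on day 1. On day 7, 8237 rose and 1659 fell. These all-gene counts also stand beside the list counts with library sizes alone given below. The 2 genes that fell by TMM on day 7 are *Gnas* and *Gna11*. The inhibitory subunits *Gnai2* and *Gnai3* rose by 0.63 and 0.89 on day 7 (FDR = 6.47e-06 and 5.62e-06), whereas *Gnas*, which encodes the stimulatory subunit, had day 7 differences of opposite sign under the scalings, with -0.19 by TMM (FDR = 0.0411) and 0.22 with library sizes alone (FDR = 0.0167). *Gna11*, encoding a subunit of the Gq class, likewise had -0.22 by TMM (FDR = 0.0123) and 0.31 on log2(TPM + 1) (FDR = 0.0118). The γ subunit gene *Gng2* was a DEG on day 7 at 1.33 (FDR = 6.63e-06). These G protein examples other than *Gng2* were named after their values were seen.

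Of the 6 other receptor kinases and arrestins 3 rose and none fell on either day (edgeR at FDR below 0.05). There were 0 decreases also at an unadjusted p below 0.05, by DESeq2 and under the other scalings. Library sizes alone and log2(TPM + 1) move the median of all genes upward, so they can hardly show decreases. *Arrb2*, an arrestin, was a DEG on both days, at 1.03 (FDR = 0.000253) and 1.51 (FDR = 2.69e-06), from 9.41 ± 1.16 CPM in sham to 26.8 ± 5.80 CPM on day 7. *Grk2* did not pass, with 0.23 (FDR = 0.0745) and -0.05 (FDR = 0.701). In the list of other cyclases and cyclase-associated proteins 8 of 9 genes were tested, with 1 increase and 2 decreases on day 1 and 3 and 4 on day 7. Without sham replicate 2 the day 1 counts were 2 and 1, and with library sizes alone they were 5 and 0 on day 1 and 4 and 2 on day 7. *Adcy3* rose by 1.47 on day 7 (FDR = 1.04e-06), *Adcy2* by 1.80 (FDR = 0.00056) from 0.439 ± 0.155 CPM, and *Cap1*, an actin regulator that binds cyclase in yeast, by 1.24 (FDR = 4e-06). *Adcy8* fell by 1.83 on day 7 (FDR = 0.000441).

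Of 15 other cAMP phosphodiesterases 3 rose and 4 fell on day 1, and 5 rose and 4 fell on day 7. The calmodulin-activated *Pde1a* and *Pde1b* rose by 1.18 (FDR = 1.92e-06) and 1.78 (FDR = 4.98e-06) on day 7, *Pde1b* being a DEG on day 1 as well at 1.04 (FDR = 0.00119). *Pde3b* rose by 1.16 on day 7 (FDR = 6.83e-05). Within the family of *Pde4b*, *Pde4c* fell by 1.16 on day 1 (FDR = 0.00108) and by 1.06 on day 7 (FDR = 0.000943), but on log2(TPM + 1) these were -0.56 (FDR = 0.0235) and -0.30 (FDR = 0.17), the latter not past the test. *Pde4a* and *Pde4d*, named after their values were seen, had day 7 differences of -0.79 and -0.78 (FDR = 9.73e-05 and 6.96e-05), which on log2(TPM + 1) were -0.24 and -0.11 and not past the test.

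Of 15 genes for PKA and its anchors 1 rose and 3 fell on day 1, and 7 rose and 7 fell on day 7. Without sham replicate 2 the day 7 increases numbered 4. The DEGs were *Pkib*, a PKA inhibitor, at 1.36 (FDR = 0.000907; 0.76 on log2(TPM + 1)), and *Akap5*, a PKA anchor, at 1.10 (FDR = 0.0231). Of 9 EPAC and CREB genes 2 rose and 1 fell on day 1 and 4 rose and 2 fell on day 7, with *Creb5*, a CREB-family factor, as a DEG on day 7 at 1.12 (FDR = 3.62e-05). The 10 genes for PKA substrates of the myocyte had 2 increases and 6 decreases on day 1 and 8 decreases and 0 increases on day 7 (edgeR, median log2 FC -0.67, with 0 increases also at an unadjusted p below 0.05 and by DESeq2). With library sizes alone the day 7 decreases numbered 4, and on log2(TPM + 1) 3 genes fell and 1 rose. The DEGs among them on day 7 were *Pln*, encoding phospholamban, the PKA-controlled inhibitor of the calcium pump, at -1.09 (FDR = 1.75e-05), *Tnni3*, encoding cardiac troponin I, at -1.35 (FDR = 3.03e-07), and *Fxyd1*, encoding phospholemman, at -1.01 (FDR = 9.6e-06). On log2(TPM + 1) *Pln* was -0.50, *Tnni3* -0.65 and *Fxyd1* -0.49, each past the test but short of the FC of 2. These are cardiomyocyte transcripts, the cardiomyocyte markers had a median of -0.95 on day 7, and their part in the result was not tested.

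Of 10 genes for catecholamine supply and clearance 8 were tested, with 1 increase and 3 decreases on day 1 and 1 and 6 on day 7, the last count being 3 with library sizes alone. *Dbh*, which makes noradrenaline in nerve endings, fell by 1.28 on day 1 (FDR = 0.00668), from 2.84 ± 1.44 CPM in sham. *Pnmt*, which makes adrenaline, fell by 1.71 on day 7 (FDR = 0.00324) from a level near 1 CPM. *Slc22a3*, a transporter that clears catecholamines outside neurons, fell by 1.41 on day 1 (FDR = 0.00332) and by 1.29 on day 7 (FDR = 0.00309). *Maob*, a monoamine oxidase, fell by 1.31 on day 7 (FDR = 2.12e-05). On log2(TPM + 1), a scale on which changes of low genes are understated, *Dbh* on day 1 was -0.44 and not past the test (FDR = 0.0529). On the same scale *Pnmt* on day 7 was -0.47 (FDR = 0.0484) and *Slc22a3* was -0.82 and -0.53 on the 2 days. *Maob*, which was not low at 35.0 ± 7.12 TPM in sham, was -0.70 on day 7. Why these values were smaller was not tested. *Th*, the enzyme at the start of catecholamine synthesis, stayed at or under 3 counts in each library of the sham and day 1 groups. *Dbh* and *Th* are also on the list of glia and nerve markers, whose sum ranged from 8.92 to 11.5 CPM in sham, from 8.45 to 10.9 CPM on day 1 and from 5.76 to 9.52 CPM on day 7.

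For each tested gene the 2 genes with the most similar log2 CPM over the 12 libraries were found among 12629 candidates, as a description, since the libraries share 3 groups and any genes that follow the groups correlate. *Adcy7* was followed most closely by *Mcm7* (Pearson r = 0.996), a DNA replication helicase subunit, and *Ltbp2* (r = 0.995), an extracellular matrix protein. *Adra1b* was nearest to *Rpp14* (r = 0.990) and *Phb2* (r = 0.981), *Adra1a* to *Epm2a* (r = 0.978) and *Snrnp200* (r = 0.971), and *Adrb1* to *Dnajb9* (r = 0.962) and *Phf5a* (r = 0.926). *Grk5* was nearest to *Stbd1* (r = 0.978) and *Selp* (r = 0.961), the latter encoding P-selectin, and *Pde4b* to *Srsf1* (r = 0.977) and *F10* (r = 0.967). *Adcy5* was nearest to *Cars2* (r = 0.980) and *Zfp652* (r = 0.978), and *Adcy6* to *Slc4a3* (r = 0.980), an anion exchanger of heart muscle, and *Mllt6* (r = 0.973). Among the 8 genes themselves *Grk5* and *Pde4b* had r = 0.896, and 0.593 after the group means were removed. *Adcy7* ran opposite to *Adra1b* (r = -0.952) and to *Adcy6* (r = -0.911), and within groups these values were -0.40 and -0.38.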

How the data were processed

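RNA from 12 whole mouse hearts, 4 in each of 3 groups, was sequenced, and each library took its group and replicate number from its label. The authors trimmed the 150-bp paired-end reads with Cutadapt and aligned them with STAR (version 2.4.0j per the labels) to Ensembl GRCm38. The deposited raw counts are whole-number counts of reads per gene without normalization. The tool behind them, the strand counted and the treatment of reads shared between genes are not given in the sources used here. The deposited TPM values were computed by the authors with RSEM.

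Counts of all 15306 genes that passed edgeR's filterByExpr were fitted with edgeR 4.0.16 in R 4.3.3 (TMM, quasi-likelihood, group only, all 12 libraries in one fit) and adjusted by Benjamini-Hochberg. The standard error was derived from the F statistic. A DEG had FDR below 0.05 and a FC of at least 2. Tested on simulated data for day 1 AMI against sham over 15306 genes, edgeR recovered 197 of 200 genes changed by a log2 FC of 2, with 15 false calls. Smaller changes were not simulated, so this test does not cover the calls at a smaller log2 FC. TPM order, shares, marker-relative levels (log2 CPM with a prior count of 2) and correlations are descriptions without a test. The genes, lists and tests were chosen with earlier results of these data known. Named genes are the 9 genes, pathway genes that were DEGs against sham, and for each tested gene its 2 closest genes of at least 1 CPM, Gm and Rik symbols left out. Exceptions are marked in the text, apart from *Th*, *Xirp2* and the antisense genes. Alternatives were DESeq2 1.42.0, limma 3.58.1 on log2(TPM + 1) or log2(TPM + 0.1) with a filter of at least 1 TPM in 4 libraries or none, other scalings and filters, fits of only the groups compared, a replicate block and leaving out each library. Separate mice make up each group, and libraries of a group differed by more than sampling noise (chi-square per degree of freedom at least 9.19). Depth ran from 23204551 to 32166517 counts, and a floor of 3 counts covers counting error only. Other experiments of the study were not analysed here.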

Additional observations from a re-analysis of the deposited data

Results flagged for a closer look

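*Adcy6* in sham replicate 2 stood at 412 CPM, a gap to the next sham heart of 0.881 of the group's range, above Dixon's critical value for 4 samples. It was the only value so marked among 24 sets of 4 hearts, and chance marks about 1 in 20 such sets. The effect of AMI differed between day 7 and day 1 for 6 of the 8 tested genes, by the edgeR test of day 7 against day 1 AMI. In that test 24.2% of all genes were higher on day 7 and 22.8% were lower. The *Pde4b* call held in 7 of the 12 fits that left out 1 library. On the log2 scale the difference was -0.64 for *Adrb1*, -0.95 for *Adra1b*, -0.62 for *Grk5*, -0.51 for *Adcy6*, 1.45 for *Adcy7* and -0.34 for *Pde4b*.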

How the results depend on the processing

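Over 22 alternative settings and the 24 log2 FC values of the 8 tested genes, 461 of 528 refits kept the direction and the side of the FDR threshold, 34 lost the call, 15 gained it and 18 changed sign, none of the last past the threshold. The number of genes that fell on day 1 (3) was 1 with library sizes alone and 1 in the 3 limma fits on TPM, that on day 7 (4) was 2 in the limma fits, and that from day 1 to day 7 (5) was 2 in the limma fits. The limma fit on TPM scaled with TMM factors, chosen after the data were examined, gave 3, 4 and 4. Signs changed in the limma fits on TPM for *Adcy6* on day 1 (0.084, 0.085 and 0.084), *Adrb1* on day 7 (0.26, 0.27 and 0.26), *Adcy5* on day 7 (0.078, 0.081 and 0.078) and *Adcy5* from day 1 to day 7 (0.19, 0.20 and 0.19). They changed with library sizes alone for *Adrb1* on day 7 (0.13) and *Adcy5* from day 1 to day 7 (0.083), and for the latter with TMM-scaled TPM (0.0035) and without day 1 AMI replicate 4 (0.019). *Adra1a* from day 1 to day 7 became -0.05 without day 1 AMI replicate 2 and -0.10 without day 7 AMI replicate 3. With each library left out in turn, the counts of increases were 4, 2 to 3 and 1 and of decreases 2 to 4, 4 to 5 and 4 to 5 in the 3 comparisons, and the day 7 against day 1 values of *Adra1a* and *Adcy5* ranged from -0.10 to 0.15 and from -0.11 to 0.019. Replicate numbers gave no sign of pairing the hearts: deviations of same-numbered hearts correlated between -0.244 and 0.229, over 0.1 in 4 of 12 pairs. Those of differently numbered hearts correlated between -0.271 and 0.25, over 0.1 in 10 of 36 pairs. Such correlations cannot exclude a shared batch. With the replicate block, 23 of 24 values kept their call and *Pde4b* on day 7 was past the test (0.29, FDR = 0.035). Depth limits *Adrb3*, whose counts lie around the floor. Counts of the pathway lists under other settings were computed after the data were examined. The day 7 increases of PKA and its anchors were 7, and 4 without sham replicate 2. The day 7 decreases of PKA substrates were 8, 4 with library sizes alone and 3 on log2(TPM + 1), those of catecholamine supply and clearance were 6, 3 and 3, and those of the other adenylyl cyclases were 4, 2 and 0. The cause of these moves was not tested.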
